A study of Mesostigma viride with 16 samples.

Results

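Transcript levels of 10 genes of the green alga *Mesostigma viride* were examined in 15 libraries of a light, temperature and pH series. The study gives a list of genes that are essential for photosynthesis in land plants, with *M. viride* counterparts. An *M. viride* identifier is printed in 11 of its 49 rows. Every *M. viride* identifier in that list was taken, except the chloroplast repair and translation genes Mv19820-RA and Mv13914-RA. This left 10 of the 12 identifiers, out of 24431 genes measured. The members are Mv08907-RA (CRY1), Mv04628-RA (ADG1), Mv20570-RA (PPC1), Mv07582-RA (PPDK1), Mv09135-RA (MDH), Mv15086-RA (ME2), Mv13545-RA and Mv14894-RA (both ASP5), Mv14619-RA (GGT1/AOAT1) and Mv04123-RA (DTC). The names are those of the *Arabidopsis* genes that the list sets beside each identifier. For Mv14619-RA the list's name and the *Arabidopsis* locus beside it belong to different aminotransferases of glyoxylate, so the name GGT1 is used only as a label. The list sets a pair of further malic enzyme genes beside Mv15086-RA and CRY2 beside Mv08907-RA. The rule names identifiers of the list and uses no expression value, although it was set with earlier results of these data known.

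All cultures were strain NIES-296, a unicellular freshwater alga grown in medium C with gentle shaking to an age of 24 days, and polyadenylated RNA was sequenced as stranded paired-end libraries from whole cultures. Control 1 (1 library) and Control 2 (2 libraries) stood at 23°C, pH 7.5 and 50 µmol photons per square metre per second in a cycle of 10 hours of light and 14 hours of darkness. The treatments lasted 24 hours and had 2 libraries each. The light treatments were darkness and high light (400 µmol photons per square metre per second). The temperature treatments were a cold one at 12°C and a high one at 32°C. The pH treatments were pH 6.0, set with Tris-HCl, and pH 9.0, set with NaOH. Control 2, their untreated reference, had an equal volume of medium C. The effect of the titrants themselves was not tested. The 2 libraries of a condition are biological replicates by the study's methods, so the spread given here is that between 2 cultures.

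In land plants, cryptochromes are blue light receptors, and ADP-glucose pyrophosphorylase, of which ADG1 is the small subunit, makes the sugar donor for starch. Most of the other members belong to a set of reactions around 4-carbon acids. Phosphoenolpyruvate carboxylase (PPC1) fixes bicarbonate into oxaloacetate, malate dehydrogenase (MDH) and aspartate aminotransferase (ASP5) turn oxaloacetate into malate or aspartate, malic enzyme (ME2) releases carbon dioxide from malate, and pyruvate, phosphate dikinase (PPDK1) restores phosphoenolpyruvate. In plants with C4 photosynthesis these enzymes form a carbon dioxide pump, and in other plants they serve nitrogen and carbon metabolism and the exchange of reducing power between compartments. Aminotransferases that act on glyoxylate serve photorespiration and related steps, and DTC carries di- and tricarboxylic acids across the inner mitochondrial membrane.

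Expression was deposited as FPKM, a fragment number scaled by transcript length and by the mapped fragments of the library, so that levels of different genes can be compared. The sums over genes ran from 578174 to 683704 FPKM and the number of fragments behind each value was not given, so no counting interval could be set. Replicate libraries correlated at 0.984 to 0.987 over the 14297 tested genes on the log2 scale. The high temperature libraries stood apart. Their median tested gene had 2.98 and 2.57 FPKM, against 7.14 to 8.58 FPKM in the other 13 libraries. A culture is a bulk sample, in which fewer cells with a transcript and less transcript per cell cannot be told apart.

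The 9 members that passed the filter on low values (2 or more libraries with 0.5 FPKM or more) were detected in every library. Their mean levels over the 15 libraries ran from 8.90 FPKM (CRY1) to 199.7 FPKM (DTC), and ADG1, MDH and DTC lay above 97.8%, 97.9% and 98.3% of all listed genes. Levels, ranges and orders of conditions are given for FPKM as deposited unless a rank or another scaling is named. The ratio of the highest to the lowest condition mean was 10.8 for Mv13545-RA and 9.31 for ME2. It was 4.87 for GGT1, 3.90 for DTC, 3.05 for MDH and 2.86 for ADG1. The narrowest ranges were those of CRY1 at 1.96, Mv14894-RA at 1.89 and PPC1 at 1.48. For ME2, GGT1 and CRY1 the lowest condition was high temperature, where the median gene was low as well. Without it, the log2 range of ME2 was 1.15 in place of 3.19 and that of GGT1 1.06 in place of 2.27. Those of Mv13545-RA (3.42), DTC (1.96), MDH (1.61) and ADG1 (1.51) were the same with or without it.

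**Figure D1:**
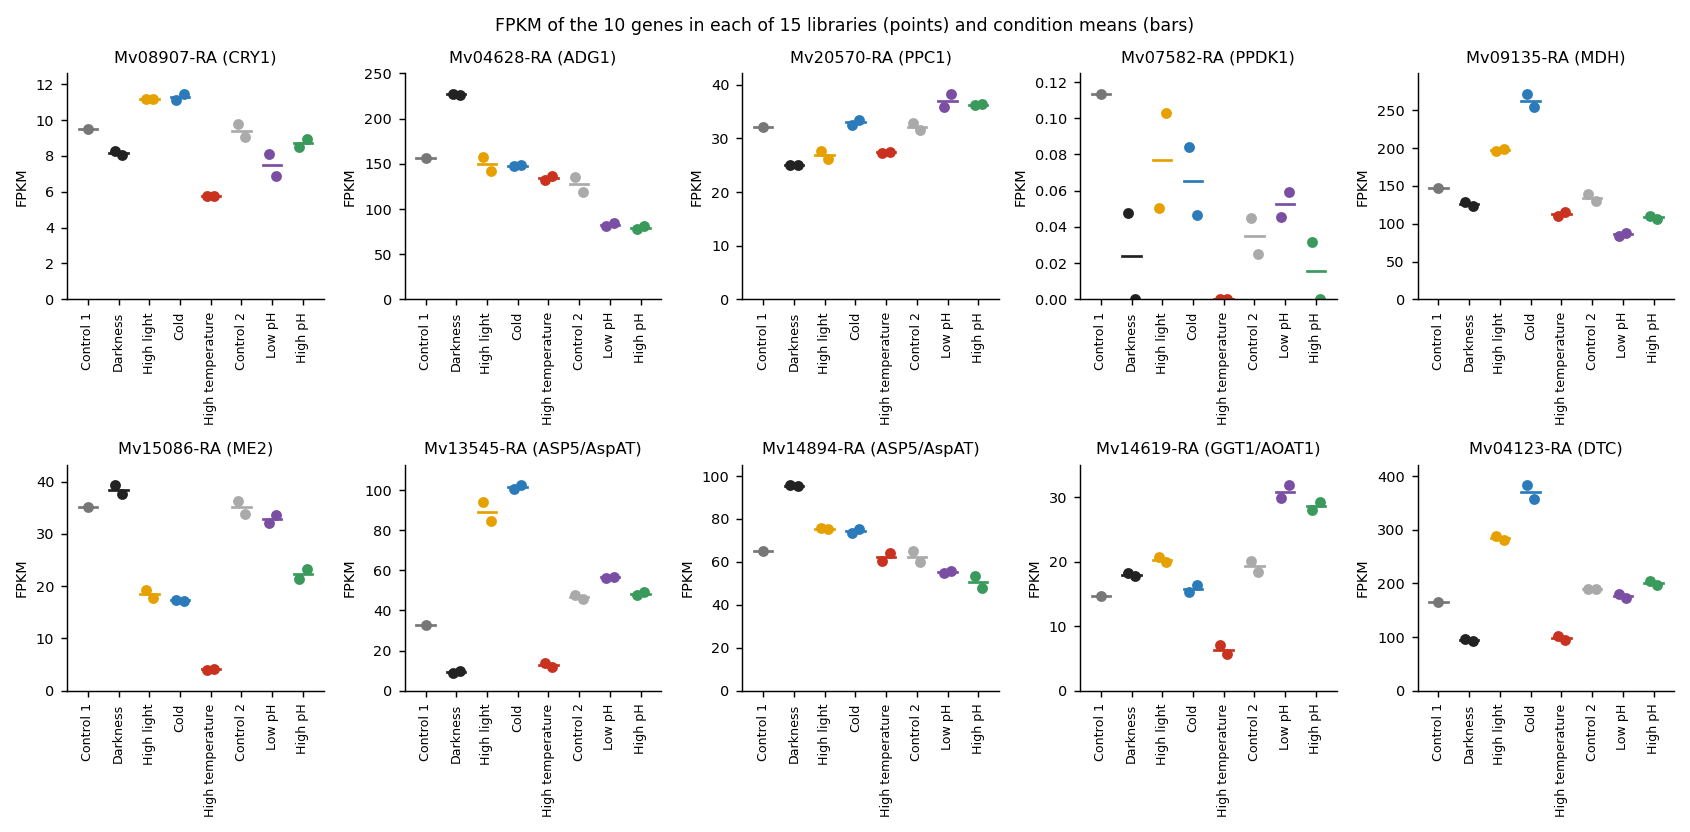
FPKM (vertical axes, linear and starting at 0, with a separate scale for each gene) of the 10 genes in the 8 conditions. Points are single libraries, bars are condition means, and Control 1 has 1 library. The highest points of Mv13545-RA, MDH, DTC and CRY1 are in cold, while PPDK1 stays below 0.12 FPKM throughout.

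The light receptor CRY1 varied little. It had 9.49 FPKM in Control 1, 8.26 and 8.04 in darkness, 11.2 and 11.2 in high light, 11.1 and 11.5 in cold, and 5.78 and 5.76 at high temperature. Among the pH libraries it had 9.78 and 9.03 FPKM in Control 2, 8.13 and 6.90 at low pH, and 8.50 and 8.95 at high pH. With FPKM as deposited, both high temperature libraries lay below all other 13 libraries. By rank within the library the order differed. CRY1 lay above 79.7% of listed genes at high temperature, its highest rank, against 78.4% in cold and 69.7% at low pH. In FPKM, cold overlapped high light at the top, and low pH overlapped darkness, as the controls did each other.

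With FPKM as deposited, ADG1, the small subunit of ADP-glucose pyrophosphorylase, was highest in darkness. It had 157 FPKM in Control 1, 228 and 226 in darkness, 157 and 142 in high light, 148 and 148 in cold, and 132 and 136 at high temperature. In the pH set it had 135 and 119 FPKM in Control 2, 80.6 and 84.1 at low pH, and 77.3 and 81.5 at high pH. The 4 libraries of the pH treatments were below the other 11, and overlapped each other. Between these extremes, Control 2 overlapped high temperature, and cold, high light and Control 1 overlapped in a chain. The top rank depended on the scaling. With libraries scaled by the median of gene ratios, the log2 change of ADG1 at high temperature against Control 1 was 1.09. Its change in darkness was at most 0.84 under any alternative.

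With FPKM as deposited, PPC1, which fixes bicarbonate onto phosphoenolpyruvate, was the steadiest of the tested members. It had 32.1 FPKM in Control 1, 25.1 and 25.0 in darkness, 27.6 and 26.2 in high light, 32.5 and 33.5 in cold, and 27.4 and 27.6 at high temperature. In the pH series it stood at 32.8 and 31.5 FPKM in Control 2, 35.8 and 38.3 at low pH, and 36.2 and 36.3 at high pH. The 4 libraries of the pH treatments held the highest values and overlapped each other. High light overlapped high temperature, and both controls and cold overlapped in a chain. With libraries scaled by the median of gene ratios, PPC1 was higher at high temperature than in Control 1, by 1.09 on the log2 scale.

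PPDK1, the enzyme that regenerates phosphoenolpyruvate from pyruvate, stood near the bottom of the scale. It had 0.114 FPKM in Control 1, 0.0476 and 0 in darkness, 0.0507 and 0.103 in high light, 0.0841 and 0.0466 in cold, and was listed at 0 in both high temperature libraries. It had 0.0448 and 0.0252 FPKM in Control 2, 0.0456 and 0.0595 at low pH, and 0.0317 and 0 at high pH. It was thus above 0 in 11 of 15 libraries. Since no library reached 0.5 FPKM, PPDK1 was not tested and no fold change is given.

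MDH, which the list pairs with the plastid NAD-dependent malate dehydrogenase of *Arabidopsis*, had a wide range with FPKM as deposited. It had 147 FPKM in Control 1, 129 and 123 in darkness, 196 and 198 in high light, 272 and 254 in cold, and 111 and 116 at high temperature. In the pH set it had 139 and 130.2 FPKM in Control 2, 84.2 and 88.2 at low pH, and 110.0 and 107 at high pH. No 2 conditions next to each other in the order of means overlapped, and low pH held the lowest libraries. The steps from high pH to high temperature (limma adjusted p = 0.277), from high temperature to darkness (0.0164), from darkness to Control 2 (0.165) and from Control 2 to Control 1 (0.253) did not pass the test across all genes.

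The malic enzyme ME2 fell into 3 tiers. It had 35.2 FPKM in Control 1, 39.4 and 37.6 in darkness, 19.3 and 17.7 in high light, 17.4 and 17.1 in cold, and 4.04 and 4.23 at high temperature. Among the pH libraries it had 36.3 and 33.9 FPKM in Control 2, 32.03 and 33.6 at low pH, and 21.3 and 23.4 at high pH. Darkness, both controls and low pH held 32.03 FPKM or more, cold, high light and high pH lay between 17.1 and 23.4 FPKM, and high temperature was far below both. Within the middle tier, high light and high pH did not overlap and the step passed the test (limma adjusted p = 0.00964). The controls overlapped each other.

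The 2 ASP5 counterparts, which would both make aspartate from oxaloacetate and glutamate, had different patterns. Mv13545-RA had 32.5 FPKM in Control 1, 9.04 and 9.74 in darkness, 94.0 and 84.5 in high light, 100.4 and 102 in cold, and 13.8 and 11.6 at high temperature. Among the pH libraries it had 47.5 and 45.8 FPKM in Control 2, 56.1 and 56.8 at low pH, and 47.5 and 49.0 at high pH. Cold was highest and darkness lowest, and of the conditions next to each other in order only Control 2 and high pH overlapped.

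Mv14894-RA had 65.0 FPKM in Control 1, 95.8 and 95.2 in darkness, 75.6 and 75.4 in high light, 73.5 and 75.2 in cold, and 60.4 and 64.0 at high temperature. In the pH series it stood at 65.0 and 59.9 FPKM in Control 2, 55.0 and 55.9 at low pH, and 53.2 and 47.7 at high pH. With FPKM as deposited, darkness, the lowest condition for Mv13545-RA, was the highest for Mv14894-RA. With libraries scaled by the median of gene ratios, the log2 change of Mv14894-RA at high temperature against Control 1 was 1.25. Its change in darkness was at most 0.71 under any alternative. In FPKM as deposited, high temperature overlapped Control 2, which overlapped Control 1.

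The ratio of Mv13545-RA to Mv14894-RA therefore moved with the condition. It was 0.5003 in Control 1, 0.0944 and 0.102 in darkness, 0.229 and 0.182 at high temperature, 1.24 and 1.12 in high light, and 1.37 and 1.36 in cold. In Control 2 it was 0.731 and 0.765, at low pH 1.02 and 1.02, and at high pH 0.893 and 1.03. Mv13545-RA gave from 8.62% (darkness replicate 1) to 57.7% (cold) of the summed level, and the sum itself ran from 74.2 FPKM at high temperature to 178 FPKM in cold. How far fragments of the 2 genes could have been assigned to each other was not tested.

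**Figure D2:**
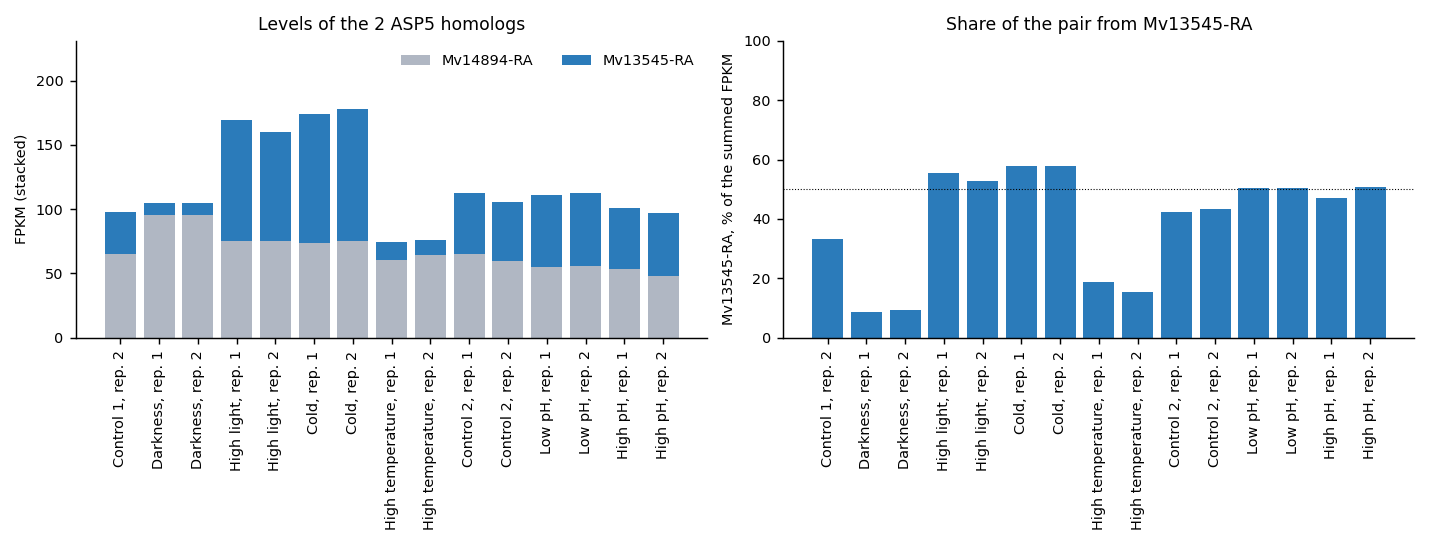
Left, stacked FPKM of the ASP5 counterparts in each of 15 libraries (rep., replicate). Right, Mv13545-RA as a percent of the summed FPKM, with a dotted line at 50%. Mv13545-RA gave 8.62% of the sum in darkness replicate 1 and up to 57.7% in cold, while the grey part of the left bars changed less.

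GGT1, the aminotransferase gene, was highest in the pH treatments. It had 14.7 FPKM in Control 1, 18.2 and 17.7 in darkness, 20.7 and 19.9 in high light, 15.3 and 16.3 in cold, and 7.02 and 5.67 at high temperature. In the pH set it had 20.2 and 18.4 FPKM in Control 2, 29.9 and 31.9 at low pH, and 28.1 and 29.3 at high pH. The 4 libraries of the pH treatments lay above the other 11 and the 2 high temperature libraries below all others. Control 2 overlapped high light between them. By rank within the library, GGT1 lay above 80.7% of listed genes at high temperature and 81.4% in Control 1.

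DTC, the mitochondrial carrier, had the highest mean over the 15 libraries, although ADG1 and MDH lay above it in darkness and at high temperature. It had 165 FPKM in Control 1, 96.9 and 93.1 in darkness, 288 and 281 in high light, 383 and 357 in cold, and 101 and 93.9 at high temperature. Among the pH libraries it had 189.9 and 190.04 FPKM in Control 2, 180.07 and 174 at low pH, and 205 and 196 at high pH. Darkness and high temperature overlapped at the bottom of its range. CRY1, DTC, MDH and Mv13545-RA shared cold as the highest condition and high light as the next, by their means of FPKM as deposited. The step between them passed for DTC (limma adjusted p = 0.000739) and MDH (0.000450). It did not for Mv13545-RA (0.136) or CRY1 (0.942). Over the 9 tested members, 20 of the 63 steps between conditions next to each other in the order of means had a limma adjusted p of at most 0.01, and in 17 the libraries overlapped.

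Differences were tested with limma on log2(FPKM + 0.1), with 1 mean per condition over all 15 libraries, and p-values were adjusted by the Benjamini-Hochberg method over all 14297 tested genes. A gene was called at an adjusted p of at most 0.01 with a change of at least 2-fold. Control 1 was the reference of the light and temperature treatments and Control 2 that of the pH treatments. Control 1 has no replicate here, so its spread was taken to be that of the other conditions, and 4 comparisons share this library.

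The cold comparison asks which members respond to 24 hours at 12°C. Mv13545-RA and DTC were higher in cold, by 3.12-fold and 2.24-fold, and ME2 was 2.03-fold lower. These 3 of the 9 tested members were called, where 12% of all tested genes were. Mv13545-RA changed by 1.64 on the log2 scale (SE 0.0996, limma adjusted p = 3.03e-07). DTC changed by 1.17 (SE 0.0634, limma adjusted p = 1.23e-07) and ME2 by -1.02 (SE 0.0867, limma adjusted p = 4.50e-06). MDH rose as well, by 0.84 on the log2 scale or 1.79-fold (limma adjusted p = 1.81e-06), which is under 2-fold. With no fold minimum, 4 of 9 members passed, against 34.0% of all genes. The other 5 tested members had log2 changes between -0.08 (ADG1) and 0.25 (CRY1). The 2-fold call of ME2 (Mv15086-RA) was lost under 4 alternatives (-0.99 to -0.81), with the direction kept. That of DTC (Mv04123-RA) was lost with quantile normalization (0.93) and against Control 2 in place of Control 1 (0.96).

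At high temperature, the malic enzyme gene changed most among the members. ME2 fell 8.50-fold against Control 1, from 35.2 to a mean of 4.13 FPKM, a log2 change of -3.06 (SE 0.0867, limma adjusted p = 8.00e-11). Of all tested genes, 14.8% had a log2 change that low or lower. Mv13545-RA was 2.55-fold lower (log2 change -1.35, SE 0.0996, limma adjusted p = 1.54e-07) and GGT1 2.32-fold lower (log2 change -1.21, SE 0.115, limma adjusted p = 1.40e-06). These 3 of 9 members were called, all lower with FPKM as deposited, where 62.2% of all tested genes were called, 7909 of them lower and 977 higher. Scaled by the median of gene ratios, 3864 were lower and 3325 higher. With no fold minimum 7 of 9 members passed, all lower with FPKM as deposited, against 76.8% of all genes. The members' median log2 change was -0.71 and that of all tested genes was -1.29.

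Since most genes had lower FPKM at high temperature, the members were also read against the median gene. ME2 (Mv15086-RA) lay below it, at -1.76 on the log2 scale, while Mv13545-RA (-0.06) and GGT1 (0.08) lay close to it. The abundant ADG1 and PPC1 lay above it by 1.07 each and Mv14894-RA by 1.23. ME2 stayed called, and lower, under all alternatives, with log2 changes from -3.13 to -1.76. For the other members the direction or the call followed the scaling. With libraries scaled by the median of gene ratios, which puts the median of all genes at -0.04, Mv14894-RA (1.25), ADG1 (1.09) and PPC1 (1.09) were called higher, Mv13545-RA was at -0.04 and GGT1 at 0.10. With upper quartile scaling, which puts the median at -0.41, or with quantile normalization, which puts it at -0.01, ME2 was the 1 member called, lower by -2.13 and -1.85.

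**Figure D3:**
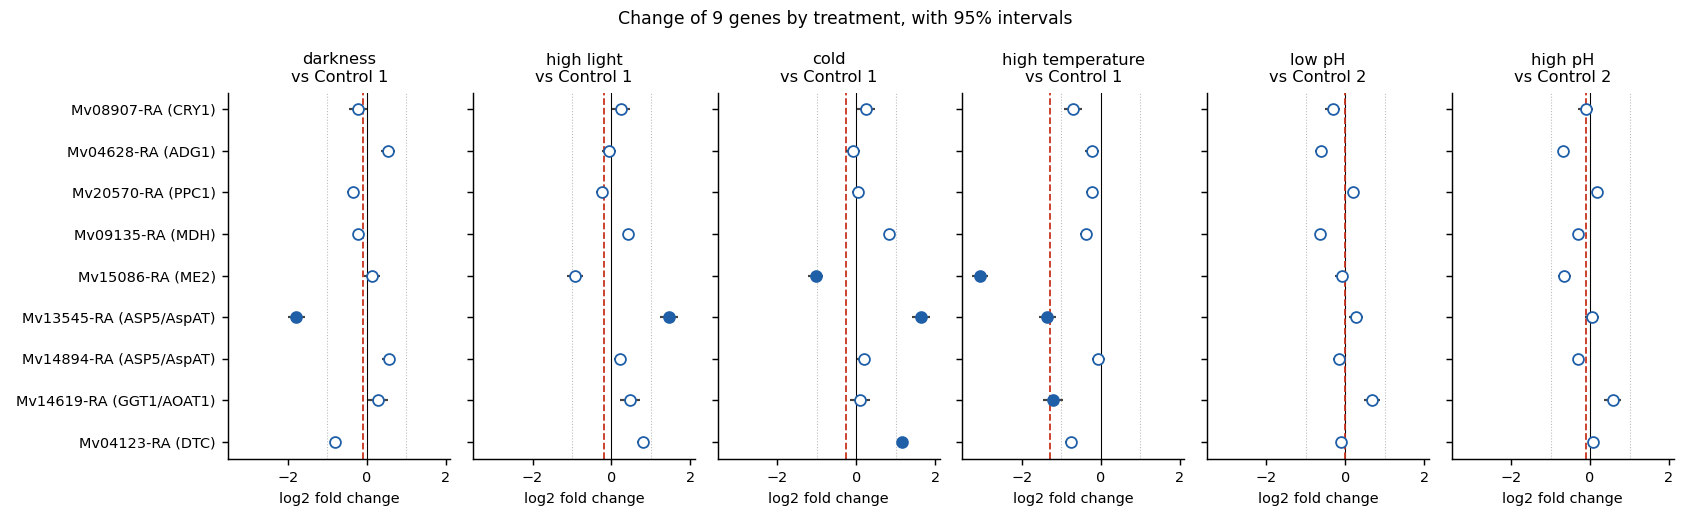
Log2 fold change (horizontal axes) of the 9 tested genes in each treatment against its control, with 95% intervals as bars, some of which are shorter than the symbol. Filled points were called at an adjusted p of at most 0.01 and at least 2-fold, the red dashed line is the median of all 14297 tested genes and dotted lines mark 2-fold. No gene was called in either pH comparison. High temperature values are for FPKM as deposited, and under other scalings the genes other than ME2 changed direction or call.

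**Figure D4:**
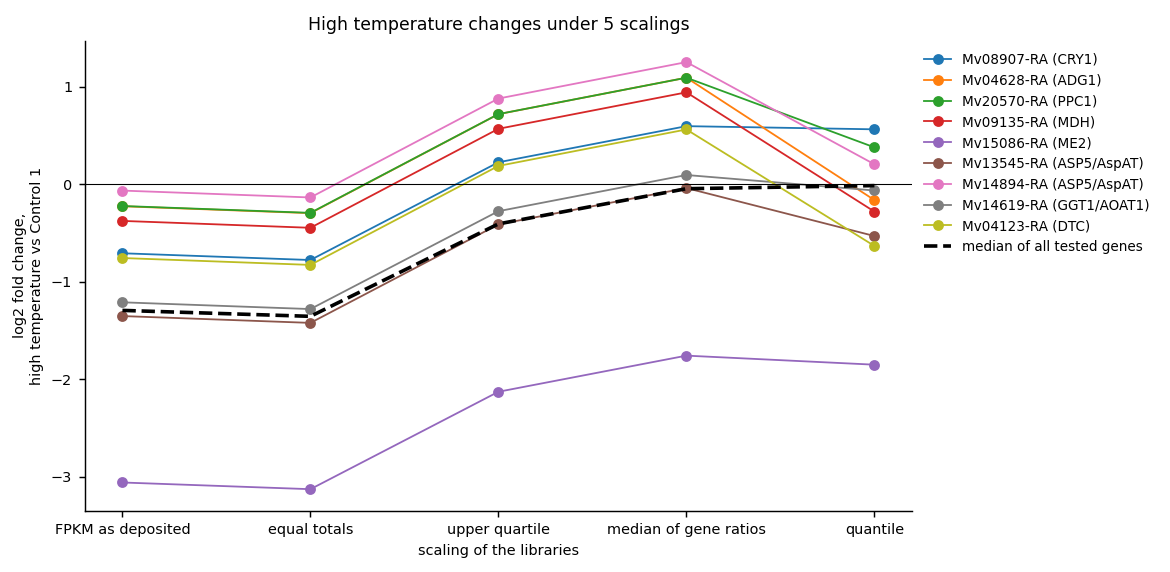
Log2 fold change at high temperature against Control 1 (vertical axis) of the 9 genes under 5 scalings of the libraries (horizontal axis). The black dashed line is the median of all tested genes, which lay between -1.35 with equal totals and -0.01 with quantile normalization. Mv15086-RA (ME2) stayed lowest, between -3.13 and -1.76, while 6 of the other genes changed sign under upper quartile scaling.

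The 2 temperature treatments were also compared directly, which uses 2 libraries on each side and no control. A total of 5 members, all with lower values at high temperature, were called, and 58.6% of all genes were. Mv13545-RA was 7.96-fold lower at high temperature than in cold (log2 difference -2.99, limma adjusted p = 3.57e-11), ME2 4.18-fold lower (-2.04, limma adjusted p = 2.24e-10) and DTC 3.79-fold lower (-1.92, limma adjusted p = 3.34e-11). GGT1 was 2.50-fold lower (-1.31, limma adjusted p = 1.00e-07) and MDH 2.32-fold lower (-1.21, limma adjusted p = 1.18e-09). The median of all tested genes was -1.07 in this comparison. With median ratio scaling, which puts that median at -0.02, Mv13545-RA was at -1.88, ME2 (Mv15086-RA) at -0.94, DTC (Mv04123-RA) at -0.81, GGT1 (Mv14619-RA) at -0.21 and MDH (Mv09135-RA) at -0.10. The call of Mv13545-RA held under every alternative, and the others fell below 2-fold under at least 1 scaling, with their direction kept. ADG1 did not pass, at -0.14 (95% interval -0.29 to 0.00).

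The pH comparisons ask how the members stand after 24 hours at pH 6.0 or 9.0. None of the 9 tested members was called at low pH, where 1.57% of all genes were called by limma, and none at high pH, where 2.25% were. At an unadjusted p under 0.05 there were 7 members at low pH, against 30.8% of all genes, and 6 at high pH, against 36.8%. Smaller changes passed the adjusted p with no fold minimum in 3 members at low pH and 5 at high pH, against 11.7% and 15.6% of all genes.

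ADG1 was lower in both pH treatments, 1.55-fold at low pH (log2 change -0.62, limma adjusted p = 6.87e-05) and 1.60-fold at high pH (-0.68, limma adjusted p = 3.17e-05). GGT1 was higher in both, 1.60-fold at low pH (0.68, limma adjusted p = 0.000452) and 1.48-fold at high pH (0.57, limma adjusted p = 0.00117). MDH was lower in both, 1.56-fold at low pH (-0.64, limma adjusted p = 1.06e-05) and 1.24-fold at high pH (-0.31, limma adjusted p = 0.00126). ME2 passed at high pH, where it was 1.57-fold lower (-0.65, limma adjusted p = 7.26e-05), and had -0.10 at low pH (limma adjusted p = 0.409). Mv14894-RA passed at high pH as well, at -0.31 (limma adjusted p = 0.00353). The 2 pH comparisons share their Control 2 libraries.

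High pH was therefore compared with low pH directly. No member reached 2-fold, where 0.804% of all genes were called by limma, and 6 members had an unadjusted p under 0.05, against 22.8% of all genes. ME2 was lower at high pH than at low pH by 1.47-fold (log2 difference -0.55, limma adjusted p = 0.000579), and MDH was 1.26-fold higher (0.33, limma adjusted p = 0.00225). These were the 2 members that passed with no fold minimum, against 4.47% of all genes. For ADG1 the difference was -0.05 (95% interval -0.20 to 0.09) and for GGT1 -0.11 (95% interval -0.32 to 0.10), and both intervals include 0.

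In the light comparisons, Mv13545-RA was the 1 member called in each. It was 3.46-fold lower in darkness (log2 change -1.78, SE 0.0996, limma adjusted p = 3.49e-07), where 5.15% of all genes were called. In high light it was 2.74-fold higher (1.45, SE 0.0996, limma adjusted p = 1.02e-06), where 5.81% were. Against Control 2 the high light change of Mv13545-RA was 0.93, under 2-fold. With no fold minimum 5 members passed in darkness, against 18.7% of all genes. ADG1 (0.54, limma adjusted p = 0.000505) and Mv14894-RA (0.55, limma adjusted p = 0.000228) were higher there, and PPC1 (-0.35, limma adjusted p = 0.00209) and DTC (-0.80, limma adjusted p = 4.95e-06) lower. In high light 4 members passed, against 19.1% of all genes, with ME2 at -0.93, DTC at 0.79 and MDH at 0.43 beside Mv13545-RA.

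The untreated conditions were compared because they serve as references for different treatments. No member was called between Control 2 and Control 1, where 3.39% of all genes were called by limma, and 4 members had an unadjusted p under 0.05, against 24.5% of all genes. Mv13545-RA passed with no fold minimum, as 7.23% of all genes did, 1.44-fold higher in Control 2 (log2 difference 0.52, limma adjusted p = 0.00588). Its values in the 2 Control 2 libraries, 47.5 and 45.8 FPKM, lay between Control 1 and high light.

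The other photosynthesis and plastid genes of the study's gene lists, with those of a light stimulus term, were counted beside the members. They were 31 genes, of which 30 were tested, and they include Mv19820-RA and Mv13914-RA, the 2 genes left out of the members. In cold 3 of the 30 rose and 3 fell, where 12% of all genes were called, with a median log2 change of 0.15 against 0.19 for the members and -0.26 for all tested genes. Without those 2 genes, 1 of 28 rose and 3 fell, with a median of 0.01. The largest change among those called was that of Mv20784-RA, from 78.6 FPKM in Control 1 to a mean of 531.8 FPKM (2.76, limma adjusted p = 5.88e-10). Mv20784-RA is listed by the term response to light stimulus alone, and by no photosynthesis or plastid term. At high temperature 4 rose and 15 fell with FPKM as deposited, where 62.2% of all genes were called, with a median of -1.03. Without the 2 genes, 2 rose and 15 fell, with a median of -1.17. The largest change was that of Mv07970-RA, from 14.0 to a mean of 0.361 FPKM (-4.97, limma adjusted p = 1.01e-09).

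In darkness 1 of the 30 rose and 2 fell, where 5.15% of all genes were called, and without the 2 genes 1 rose and 1 fell. In high light 4 rose and 2 fell, where 5.81% were called, and without the 2 genes 2 rose and 2 fell. In the pH comparisons none was called by limma. At an unadjusted p under 0.05 there were 16 of the 30 at low pH, against 30.8% of all genes, and 21 at high pH, against 36.8%.

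For the 3 members with the widest range, the tested gene with the most similar log2 profile over the 15 libraries was looked up among the 12705 genes that averaged 1 FPKM or more. For Mv13545-RA it was Mv15531-RA (Pearson r 0.983, Spearman rho 0.968), which ran from a mean of 10.9 FPKM in darkness to 43.2 FPKM in cold. For ME2 it was Mv00869-RA (0.992 and 0.936), with 15.9 FPKM in darkness and 0.829 FPKM at high temperature. For GGT1 it was Mv12393-RA (0.984 and 0.925), with 39.3 FPKM at low pH and 5.09 FPKM at high temperature. The gene next in order was close, with a Pearson r of 0.982 for Mv13545-RA, 0.992 for ME2 and 0.978 for GGT1. ME2 and GGT1 had their wide ranges through high temperature, where most genes had lower FPKM. These are descriptions over libraries that share conditions and library effects.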

How the data were processed

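Per the labels and the study's methods, the authors filtered the reads, aligned them with HISAT2 to the genome of the alga and deposited FPKM values per gene, made with Cufflinks. The values of 15 libraries were analysed, and the other Control 1 library was not used here. FPKM keeps no fragment numbers, so methods for counts were not run on these values and the precision of low values is unknown. Tested genes had 0.5 FPKM or more in 2 or more libraries. limma 3.58.1 in R 4.3.3 was run on log2(FPKM + 0.1) in 1 fit of all libraries, with a mean for each condition, a variance prior that follows expression and 7 residual degrees of freedom. The added 0.1 makes fold changes of low genes smaller than their ratios. The references, the 2-fold minimum and the adjusted p of 0.01 follow the study's methods. The test does not, since the study called its genes with DESeq2. The calls and shares given here are therefore not those of the study. Named genes were all members, the most correlated gene of the 3 members with the widest range, and, of the other photosynthesis and plastid genes, the 1 with the largest called change in cold and at high temperature. The other list took genes by the wording of annotation terms that the study gives for charophytes, so it is not a full set of photosynthesis genes. The terms named photosystems, photosynthesis, plastids, chloroplasts, thylakoids or a light stimulus. The 2 genes of the photosynthesis list that are not members were added. The members and lists were chosen with earlier results of these data known. The alternatives were 2 pseudocounts, 2 filters, 2 thresholds, 4 scalings of the libraries, 2 other references, a robust variance prior, the replicate number as a block, fits of only the groups compared, and each library left out.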

Additional observations from a re-analysis of the deposited data

How the results depend on the processing

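Of 2313 recomputed changes of the members, 2265 were counted as kept, on the same side of the threshold. A further 21 fell below it, 2 rose above it and 25 reversed in sign, with an adjusted p of at most 0.01 in 1 or both fits. Of the 2265 counted as kept, 33 changed sign where neither fit had an adjusted p of at most 0.01. No call changed when a library was left out, and the comparisons with Control 1 could not be made without its 1 library. The count of members called against Control 2 in high light was 0 in place of 1. At high temperature it was 1 in place of 3 with upper quartile scaling and 1 with quantile normalization. Between high temperature and cold it was 3 in place of 5 with upper quartile scaling, 1 with median ratio scaling and 2 with quantile normalization. Over all genes, calls fell with a pseudocount of 1 from 1722 to 1138 in cold, from 322 to 198 at high pH and from 485 to 304 between the controls. The last were 200 with only those groups fitted and 301 without Control 2 replicate 1, and darkness against Control 2 had 1464 calls in place of 737. All 25 reversals were at high temperature. Against Control 1, upper quartile scaling gave CRY1 0.23, ADG1 0.72, PPC1 0.72, DTC 0.19, MDH 0.57 and Mv14894-RA 0.88. Median ratio scaling gave CRY1 0.60, ADG1 1.09, PPC1 1.09, DTC 0.56, MDH 0.94, Mv14894-RA 1.25 and GGT1 0.10, and quantile normalization gave CRY1 0.56 and PPC1 0.38. Against cold, ADG1, PPC1 and Mv14894-RA were at 0.77, 0.65 and 0.66 with upper quartile scaling and at 0.97, 0.85 and 0.85 with median ratio scaling. CRY1 was at 0.14 with median ratio scaling and 0.11 with quantile normalization, which gave PPC1 0.36 and Mv14894-RA 0.21. These scalings move the median of all genes, and the cause of that shift was not tested. Of the changes in cold against Control 1, MDH passed 2-fold at 1.04 with median ratio scaling. With the replicate block the count of members called was 3 in cold and 3 at high temperature, ME2 was at -3.06 at high temperature, and no call changed. Deviations of libraries that share a replicate number correlated at -0.08 to 0.07 over 21 pairs of conditions, so the numbers were not taken to pair the samples.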
